A study of Homo sapiens with 6 samples.

Results

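Expression of the E2F and retinoblastoma (RB) gene families was followed in 10 genes chosen by name: the activators E2F1, E2F2 and E2F3, the canonical repressors E2F4 and E2F5, the atypical repressors E2F7 and E2F8, and the pocket proteins RB1, RBL1 and RBL2. They are 10 of 18701 genes with a value, and all 10 were among the 14025 bright enough to test. The arrays held RNA of HT29-tsp53 cells, which are HT-29 cells (an established line from a human colorectal adenocarcinoma) that express a temperature-sensitive mouse p53 transgene, and every group carried it. Cells kept at the restrictive temperature are called p53 off, cells moved to 32 °C for 16 h are p53 on, and cells given another 6 h of recovery after those 16 h are p53 on then off. Each group held 2 Affymetrix Human Gene 1.0 ST arrays, 1 each from the experiments that the labels number 1 and 2. Besides 32 °C the labels name 38 °C, taken here as the restrictive temperature, and 37 °C, taken as the growth temperature. For the 6 h of recovery the labels are not uniform, since 32 °C also appears there. What drives the transgene, and whether the line is 1 clone, is not stated. No array of cells without the transgene was analysed here, so active p53 and the shift in temperature cannot be told apart in these values.

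E2F proteins bind DNA, mostly with a DP partner, at the promoters of genes for DNA replication and cell division. Pocket proteins bind E2Fs and hold these genes down until cyclin-dependent kinases phosphorylate them at the end of G1. RBL2 (p130) and RBL1 (p107) also join E2F4 or E2F5 and the MuvB core in the DREAM complex, which represses cell cycle genes in resting cells. E2F7 and E2F8 bind DNA without a DP partner or a pocket protein, and E2F7 is known as a direct p53 target gene. In the textbook pathway p53 acts here through CDKN1A, the p21 inhibitor of these kinases.

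The p53 targets CDKN1A and MDM2 were read first, as a check of the labels. CDKN1A had log2 signals of 4.83 and 4.99 with p53 off, 8.32 and 7.91 with p53 on, and 4.92 and 4.78 with p53 on then off. MDM2, a ubiquitin ligase for p53, had 7.51 and 7.31 with p53 off, 10.97 and 10.89 with p53 on, and 7.60 and 7.40 with p53 on then off. Both were high on the p53 on arrays alone. All 10 p53 target genes listed for this check were called higher with p53 on, against 5.18% of all genes tested. All 10 were called lower again in recovery, against 3.39%. All 7 intestinal epithelial markers lay above the level used to leave out dim genes (log2 3.62), with means from 4.35 for CDX2 to 12.46 for KRT18. Of the markers of other cells, 5 of 6 fibroblast and 3 of 5 leukocyte genes lay above that level. Fibroblast genes averaged from 2.03 for DCN to 5.57 for COL1A1. The defining leukocyte gene PTPRC averaged 1.70, CD14 5.29 and CD68 6.15, so the lists overlapped in signal. LYZ, a lysozyme gene listed as a leukocyte marker that intestinal secretory cells also express, averaged 11.21. The marker lists had 0 called genes in the comparisons below. With the mean of probe sets 1 epithelial and 1 leukocyte marker were called higher with p53 on. So was 1 epithelial marker with a trend in the spread, and 1 leukocyte marker with the lowest 50% of genes left out or without p53 on array 2. Their part in the results below was not tested.

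A gene's value was the median log2 signal of its probe sets on an array, and differences below are in log2 units with their standard error from limma (n = 2 arrays per group). In every fit quoted below, unless said otherwise, the experiment number was a block, so that groups were compared within each experiment. With this block, leaving out either array of the group not compared gives the same fit as only the 2 groups compared. So 2 of the 6 fits that leave out 1 array are copies and do not test the arrays compared. With p53 on, E2F7 rose 1.94-fold, while E2F8 fell 2.49-fold, RBL1 2.38-fold and RB1 1.67-fold relative to p53 off. Thus 1 of 10 members was called higher, against 5.18% of all genes tested, and 3 of 10 lower, against 6.28% (4 of 10 either way, against 11.5%). In p53 on then off relative to p53 on, E2F7 fell 2.03-fold, RBL1 rose 2.79-fold and E2F8 rose 1.82-fold. That is 2 of 10 called higher against 3.84% of all genes, and 1 of 10 lower against 3.39% (3 of 10 either way, against 7.24%). None of the 10 differed at the threshold between p53 on then off and p53 off. Without the experiment block no member was called in any comparison. The shares of all genes called without it were 0.898% higher and 0.585% lower with p53 on, 0.143% higher and 0.285% lower in recovery relative to p53 on (1.48% and 0.428% either way), and 0.0285% higher in recovery relative to p53 off.

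**Figure D1:**
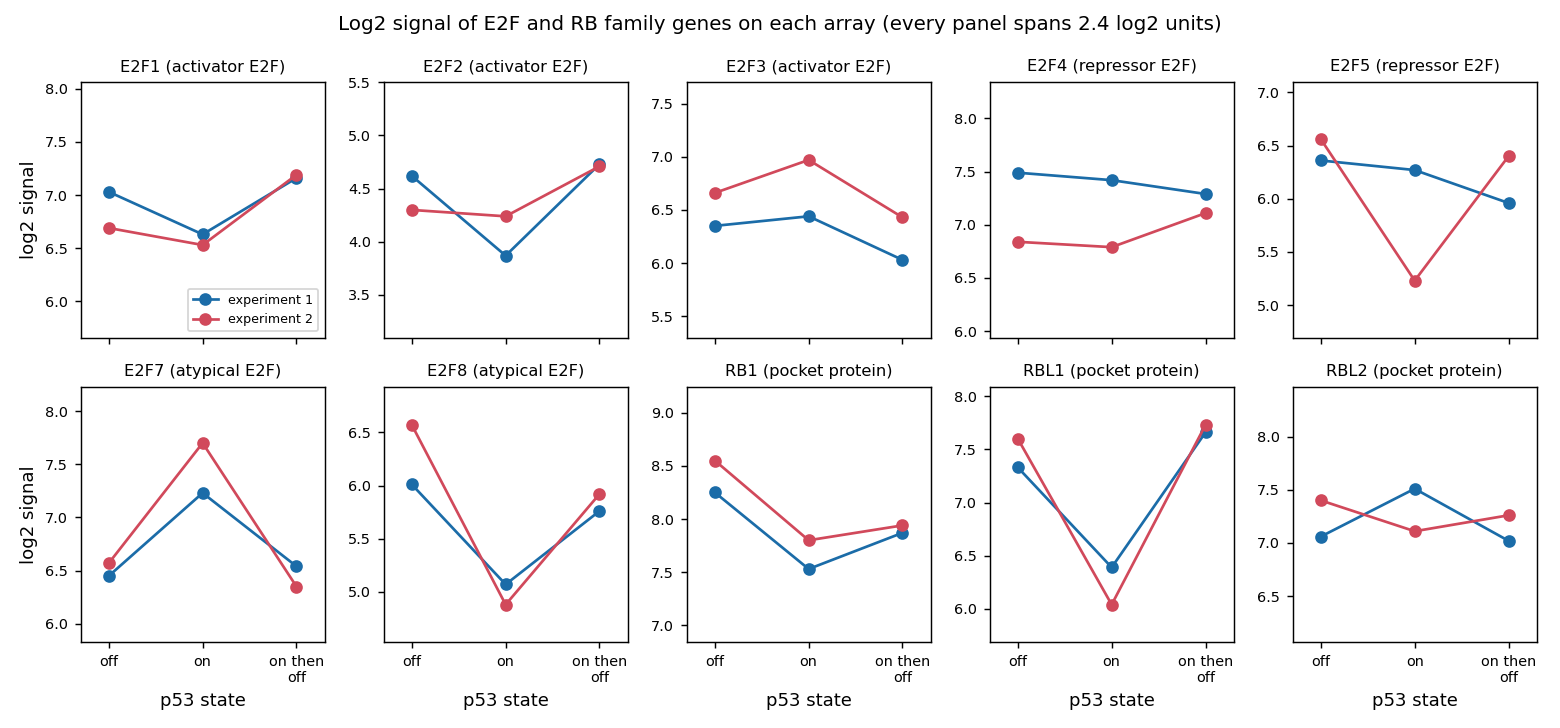
Log2 signal (vertical axis) of each of the 10 genes with p53 off, on, and on then off (horizontal axis), 1 point per array and 1 line per experiment, with panels of equal height in log2 units. E2F7 peaks with p53 on in both experiments at 7.23 and 7.70, while E2F8 and RBL1 have their lowest points there.

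E2F7 was the member that rose. It had log2 signals of 6.45 and 6.57 with p53 off, 7.23 and 7.70 with p53 on, and 6.54 and 6.35 with p53 on then off, in experiments 1 and 2. Both p53 on arrays lay above the other 4, and the off and on then off arrays overlapped. The rise with p53 on was 0.95 ± 0.20 (adjusted p = 0.0199, but adjusted p = 0.115 without the block), with 0.78 in experiment 1 and 1.13 in experiment 2. The fall in recovery was -1.02 ± 0.20 (adjusted p = 0.0218, or adjusted p = 0.137 without the block). Of its 13 probe sets, 12 were higher in both experiments with p53 on and 12 were lower in both in recovery. The rise was called in 3 of the 6 fits that leave out 1 array, and not without p53 off array 1 (adjusted p = 0.0643), p53 off array 2 (0.0951) or p53 on array 2 (0.118). The fall was called in 4 of 6, and not without p53 on array 2 (0.112) or p53 on then off array 2 (0.195). With no filter on dim genes neither passed (adjusted p = 0.0502 for the rise and 0.0586 for the fall).

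E2F8, the other atypical repressor, moved the opposite way. It had log2 signals of 6.01 and 6.57 with p53 off, 5.07 and 4.88 with p53 on, and 5.76 and 5.92 with p53 on then off. The p53 on arrays were the lowest 2 of 6, and both recovery arrays lay below both p53 off arrays. With p53 on it fell by 1.32 ± 0.21 (adjusted p = 0.00661, but adjusted p = 0.0617 without the block), and this was called in all 6 fits that leave out 1 array. In recovery it rose by 0.86 ± 0.21 (adjusted p = 0.0428, or adjusted p = 0.210 without the block). That rise was not called without p53 on array 2 (0.226), p53 on then off array 1 (0.171) or p53 on then off array 2 (0.152), nor after quantile normalization (0.0539) or with no filter on dim genes (0.0973). With the mean of probe sets E2F8 differed by -0.998 with p53 on (adjusted p = 0.00206) and by 0.756 in recovery (0.0109). Both were smaller in size than with the median. Of its 14 probe sets, 13 were lower in both experiments with p53 on and 12 higher in both in recovery. Against p53 off the recovery level differed by -0.45 ± 0.21, with a 95% interval of -0.93 to 0.02 (adjusted p = 0.409).

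Among the pocket proteins, RBL1 (p107), which binds E2F4 and E2F5, had the largest change of any member in recovery. Its log2 signals were 7.33 and 7.60 with p53 off, 6.39 and 6.04 with p53 on, and 7.66 and 7.73 with p53 on then off. The 3 groups did not overlap, and the recovery arrays were the highest. RBL1 fell by 1.25 ± 0.20 with p53 on (adjusted p = 0.00661, but adjusted p = 0.0508 without the block), with -0.94 and -1.57 in the experiments. It rose by 1.48 ± 0.20 in recovery (adjusted p = 0.00584, or adjusted p = 0.0563 without the block), and that rise was called in all 6 fits that leave out 1 array. The fall was called in 5 of 6, and not without p53 off array 2 (adjusted p = 0.0508). With the mean of probe sets RBL1 differed by -0.938 with p53 on (adjusted p = 0.00167) and by 1.19 in recovery (0.00078). Both were smaller in size than with the median. Of its 24 probe sets, 21 were lower in both experiments with p53 on. A single probe set stood apart at 1.61, and its mean signal of 3.42 was under the dim level.

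RB1, the retinoblastoma protein and main partner of the activator E2Fs, fell without a called return. It had log2 signals of 8.25 and 8.55 with p53 off, 7.53 and 7.80 with p53 on, and 7.87 and 7.94 with p53 on then off. All p53 off arrays lay above the other 4, and the recovery arrays lay between the other groups. The fall with p53 on was -0.74 ± 0.17 (adjusted p = 0.0288, but adjusted p = 0.166 without the block), and it was nearly the same size in the 2 experiments, at -0.72 and -0.76. Of its 30 probe sets, 27 were lower in both experiments. The call was held without either recovery array, where the fit is the same as that of the p53 off and p53 on groups alone. It was lost without any 1 of the 4 p53 off and p53 on arrays, with differences from -0.805 to -0.666. It was also lost with only probe sets above the dim level (-0.55, adjusted p = 0.0677) and with no filter on dim genes (adjusted p = 0.0646). In recovery the difference from p53 on was 0.24 ± 0.17 (adjusted p = 0.463). There, 19 of the 30 probe sets were higher in both experiments, 2 were lower in both and 9 were mixed. With the mean of probe sets the difference was 0.33 (adjusted p = 0.217). The difference of recovery from p53 off was -0.49 ± 0.17, with an interval of -0.88 to -0.10 and an unadjusted p of 0.0193 that did not pass adjustment (adjusted p = 0.277).

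RBL2 (p130), the pocket protein of resting cells, had a median over probe sets that went opposite ways in the 2 experiments in both comparisons with p53 on. Its log2 signals were 7.06 and 7.40 with p53 off, 7.51 and 7.11 with p53 on, and 7.02 and 7.26 with p53 on then off, and all groups overlapped. With p53 on the difference was 0.45 in experiment 1 and -0.29 in experiment 2, for an estimate of 0.08 ± 0.21 and an interval of -0.41 to 0.57 (adjusted p = 0.855). Of its 23 probe sets, 11 were higher in both experiments with p53 on, 3 were lower in both and 9 were mixed. In recovery relative to p53 on 4 were higher in both, 7 lower in both and 12 mixed.

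**Figure D2:**
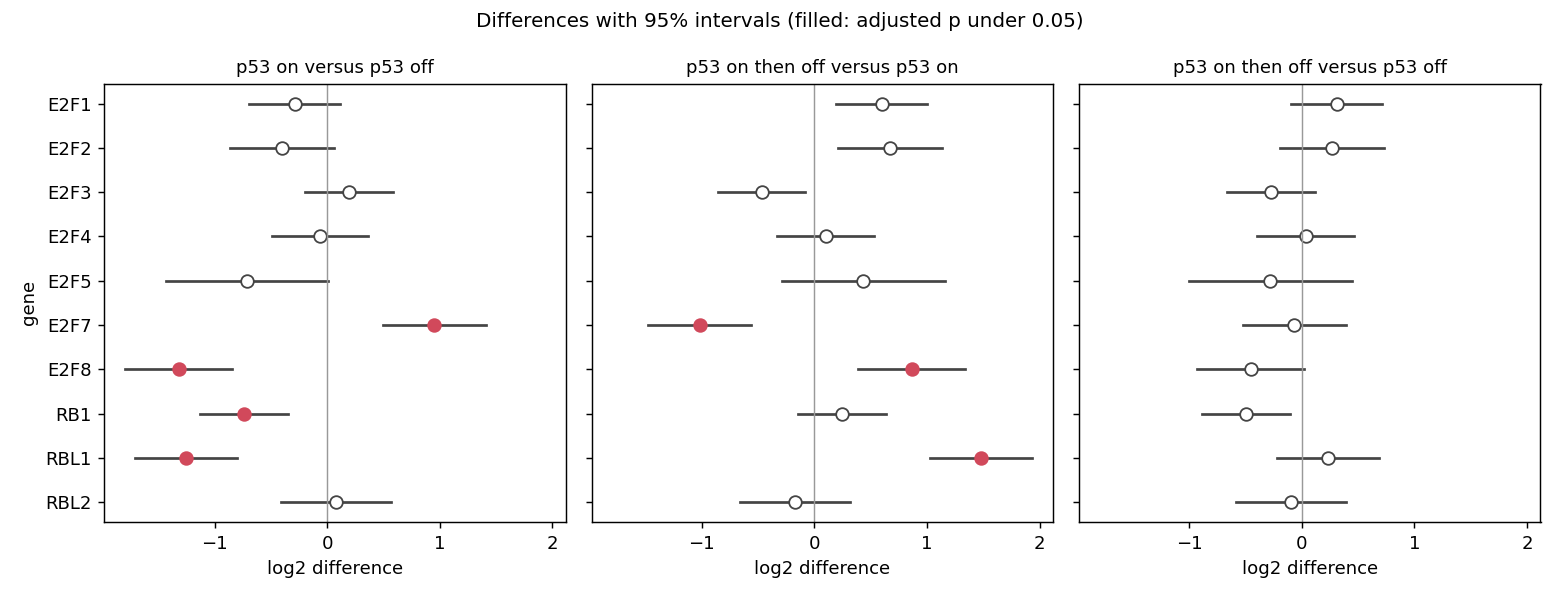
Log2 difference of each gene (horizontal axis) in the 3 comparisons, each point with its 95% interval from limma, and filled where adjusted p was under 0.05. E2F7 lies right of 0 with p53 on and left of it in recovery, E2F8 and RBL1 do the reverse, and no point is filled for p53 on then off versus p53 off.

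Promoter sequence is shown for RBL1, E2F1 and E2F2, which hold E2F words, and for E2F7, the member that rose. E2F3 also holds an E2F word but is not printed. It was not called, and it differed by 0.195 with p53 on and by -0.468 in recovery. E2F genes and RBL1 are themselves known targets of E2F, and of the 4 genes printed E2F1 and E2F2 were not called. Whether the words go with the changes was not tested. RefSeq windows of 250 bases before to 50 bases after a start (GRCh38.p14) lay at the outer 5′ end of the gene for 7 of the 10 members. The window of RB1 lay 172699 bases inside the gene and was left out, and E2F5 and E2F8 were not matched. The 7 windows were searched on both strands for the E2F words TTTCCCGC, TTTCGCGC, TTTGCCGC and TTTGGCGC, and none of the matches overlapped. RBL1 and E2F1 each held 2 matches and E2F2 and E2F3 each held 1, while E2F4, E2F7 and RBL2 held 0. Of all 35116 windows in the table, internal starts included, 3.3% held at least 1. The last 100 bases before the start are printed on the gene's strand, with E2F words in capitals for RBL1, E2F1 and E2F2. For E2F7, which held no E2F word, the capitals mark CCAAT boxes read on the other strand (CCAAT occurs in 34.6% of windows). The whole E2F7 window held 4 CCAAT matches, and only those within the printed bases are shown. The windows of E2F1 and E2F3 also held CCAAT matches (3 and 4), which are not marked.
RBL1 (chr20:37095998-37096097, minus strand): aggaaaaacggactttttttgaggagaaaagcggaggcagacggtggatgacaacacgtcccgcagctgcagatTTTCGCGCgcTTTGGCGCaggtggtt
E2F1 (chr20:33686386-33686485, minus strand): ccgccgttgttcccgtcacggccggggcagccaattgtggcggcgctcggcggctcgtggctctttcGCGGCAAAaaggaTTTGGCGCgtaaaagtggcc
E2F2 (chr1:23531234-23531333, minus strand): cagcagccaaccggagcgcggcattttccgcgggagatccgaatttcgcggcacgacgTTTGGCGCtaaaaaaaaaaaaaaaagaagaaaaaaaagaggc
E2F7 (chr12:77065570-77065669, minus strand): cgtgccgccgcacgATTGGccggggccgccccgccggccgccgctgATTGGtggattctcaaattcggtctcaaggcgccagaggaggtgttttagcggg
In RBL1 the words start 26 and 16 bases before the gene's start, in E2F1 33 and 20 bases before it, and in E2F2 42 bases before it. A match is a run of letters and was not tested for binding here.

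The activators, which drive entry into S phase, were not called in either direction. E2F1 had log2 signals of 7.03 and 6.69 with p53 off, 6.63 and 6.53 with p53 on, and 7.16 and 7.19 with p53 on then off. Its p53 on arrays were the lowest and its recovery arrays the highest, with no overlap of groups. The difference was -0.29 ± 0.18 with p53 on (adjusted p = 0.350) and 0.60 ± 0.18 in recovery (adjusted p = 0.0828). Its 8 probe sets split, with 5 lower and 2 higher in both experiments with p53 on. With the mean of the probe sets in place of the median, E2F1 differed by -0.54 (adjusted p = 0.0197) and then by 0.74 (adjusted p = 0.00656), so its call depends on how the probe sets are joined. The recovery difference also passed with the lowest 50% of genes left out (adjusted p = 0.0338) and with a trend in the spread (0.0376).

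E2F2 had log2 signals of 4.62 and 4.30 with p53 off, 3.87 and 4.24 with p53 on, and 4.73 and 4.71 with p53 on then off, close to the dim level. The recovery arrays were the highest, and the differences were -0.40 ± 0.20 with p53 on (adjusted p = 0.248) and 0.67 ± 0.20 in recovery (adjusted p = 0.0892). Over probe sets above the dim level the recovery difference was 0.88 (adjusted p = 0.0216). E2F3 had log2 signals of 6.35 and 6.66 with p53 off, 6.44 and 6.97 with p53 on, and 6.03 and 6.43 with p53 on then off. Its differences were 0.19 ± 0.17 with p53 on and -0.47 ± 0.17 in recovery (adjusted p = 0.515 and 0.146), opposite in sign to those of E2F1 and E2F2. Whether the 3 activators differ from each other was not tested.

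The canonical repressors were not called. E2F4, the main E2F of resting cells, had log2 signals of 7.49 and 6.84 with p53 off, 7.42 and 6.79 with p53 on, and 7.29 and 7.11 with p53 on then off. The 2 experiments lay farther apart than the groups, and the difference with p53 on was -0.06 ± 0.19, with an interval of -0.49 to 0.37 (adjusted p = 0.870). E2F5 had log2 signals of 6.36 and 6.56 with p53 off, 6.27 and 5.23 with p53 on, and 5.96 and 6.40 with p53 on then off. Of its 10 probe sets, 7 were lower in both experiments with p53 on, 0 were higher in both and 3 were mixed. With the mean of probe sets E2F5 differed by -0.555 (adjusted p = 0.0734). With the median the estimate was -0.71 ± 0.32 (adjusted p = 0.192). It leaned on the low value on p53 on array 2, with -0.09 in experiment 1 and -1.34 in experiment 2. Leaving out p53 on array 1 gave -1.40 (adjusted p = 0.00721), and leaving out p53 on array 2 gave -0.03. In recovery the difference was 0.43 ± 0.32 (adjusted p = 0.482), or 1.12 (0.0260) with p53 on array 1 left out and -0.25 with p53 on array 2 left out.

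**Figure D3:**
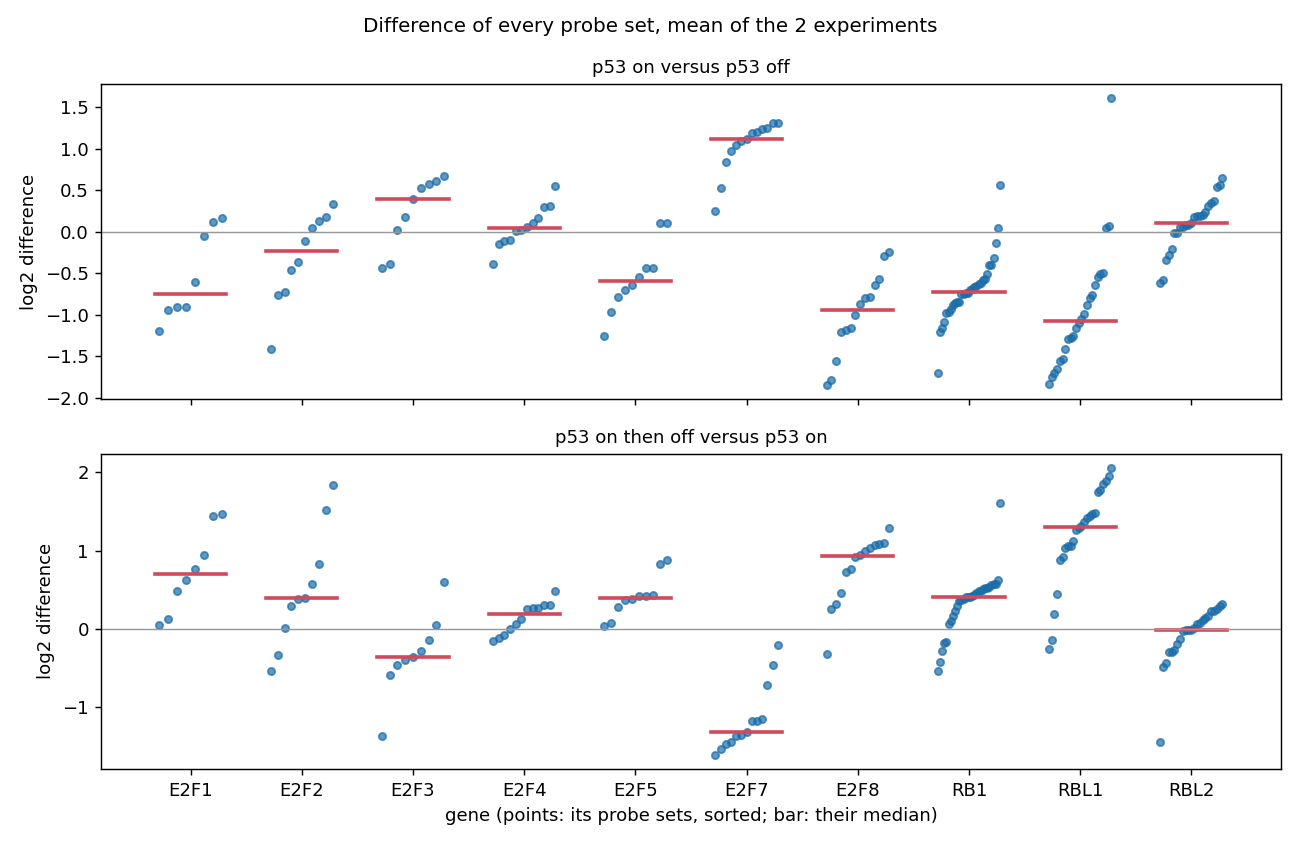
Log2 difference (vertical axis) of every probe set of each gene (horizontal axis), averaged over the 2 experiments, for p53 on versus p53 off above and p53 on then off versus p53 on below, with the median as a bar. The bar is the median of these differences, while the text compares medians taken on each array, and the 2 can differ. For E2F1 with p53 on they are -0.76 and -0.29. The 13 E2F7 probe sets lie between 0.25 and 1.31 with p53 on, those of E2F8 between -1.85 and -0.25, and those of E2F1 between -1.20 and 0.16.

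After 6 h of recovery the members were compared with cells whose p53 had stayed off. By limma 0 of the 10 were called, against 0.599% of all genes (0.207% higher and 0.392% lower). RB1 alone had an unadjusted limma p under 0.05, so 1 of 10, against 1821 of the 14025 genes tested. Without the block it was 0 of 10, against 746 of 14025. The estimates ran from -0.49 for RB1 to 0.31 for E2F1. E2F7 differed by -0.07 ± 0.20 (interval -0.52 to 0.39) and RBL1 by 0.23 ± 0.20 (-0.22 to 0.68), so changes of that size either way are not resolved by 2 arrays per group. The 3 comparisons share arrays, so a member's values in them are not independent.

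The rest of the pathway was described by lists. Among E2F6 and the DP partners, 3 of 4 genes were bright enough to test. Of these, 1 rose and 1 fell with p53 on, against 5.18% and 6.28% of all genes. In recovery 1 fell, against 3.39% of all genes. TFDP2 (DP-2) rose by 1.34 with p53 on (adjusted p = 0.00791, or 0.103 without the block) and fell by 0.93 in recovery (adjusted p = 0.0414, or 0.273). Its signals were 6.29 and 6.22 with p53 on, against 4.51 and 5.32 with p53 off. TFDP1 (DP-1) fell by 0.79 with p53 on (adjusted p = 0.0248, or 0.161 without the block). Its signals of 9.11 and 8.91 with p53 on lay below the 10.02 and 9.58 with p53 off. TFDP1 lost its call without any 1 of the 4 arrays of these 2 groups, and the recovery fall of TFDP2 was lost without p53 on array 1 or either recovery array.

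Of 9 cyclins and kinases that phosphorylate pocket proteins, 2 fell with p53 on, against 6.28% of all genes called lower. In recovery 2 rose, against 3.84% called higher. The medians were -0.40 and 0.38, against 0.02 and 0.02 for all genes. CCNE2 (cyclin E2) fell by 1.10 (adjusted p = 0.00952) and then rose by 1.63 (adjusted p = 0.00341). Its signals of 5.01 and 3.66 with p53 on overlapped the 5.86 and 5.01 with p53 off, and 3.66 lies near the dim level. CDK6, a partner of D cyclins, fell by 0.65 (adjusted p = 0.0471), and CCNE1 (cyclin E1) rose by 1.04 in recovery (adjusted p = 0.0106). CCNE1 and CCNE2 are also counted among the G1/S genes below. None of these calls held without the block (adjusted p = 0.448, 0.308, 0.180 and 0.0963 in that order). CDK6 was called in 0 of the 6 fits that leave out 1 array, and CCNE2 fell in all but the fit without p53 off array 2, where the count of falls was 0. With the mean of probe sets 5 fell and 4 rose, 4 fell with the lowest 50% of genes left out or a trend in the spread, and 1 fell with no filter or with only these groups fitted. The count of rises was 1 without p53 on then off array 2 and 2 in the other fits that leave out 1 array.

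Of all genes tested, 5.18% were called higher and 6.28% lower with p53 on, and 3.39% lower in recovery relative to p53 on. Of 6 testable CDK inhibitors, CDKN1A was the only call, with a rise of 3.21 with p53 on and a fall of 3.26 in recovery (adjusted p = 7.68e-05 and 0.000136). The others lay between -0.28 for CDKN1B and 0.39 for CDKN2A with p53 on. Without p53 on array 1 the count of rises was 2, and the count of falls was 2 with probe sets above the dim level, quantile normalization, the lowest 50% of genes left out or a trend in the spread. Of 6 MuvB and B-MYB genes, RBBP4, a histone-binding subunit, fell by 0.65 with p53 on (adjusted p = 0.0476, or 0.540 without the block), a call made in 0 of the 6 fits that leave out 1 array. Its signals of 9.22 and 8.30 with p53 on overlapped the 9.71 and 9.11 with p53 off. MYBL2 (B-MYB) differed by -0.50 (adjusted p = 0.122). Of 10 chromatin cofactors of pocket proteins, the maintenance DNA methyltransferase DNMT1 fell by 0.99 with p53 on (adjusted p = 0.00954, or 0.0665 without the block), and not at the threshold without p53 off array 2. DNMT1 made 1 of 10 called lower with p53 on, near the 6.28% of all genes. In recovery 0 were called, against 3.84% of all genes called higher and 3.39% lower. The count of rises was 1 with only these groups fitted, the mean of probe sets or probe sets above the dim level. It was also 1 with the lowest 50% of genes left out or a trend in the spread.

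Genes known as targets of these factors formed the larger lists. Of 40 testable G1/S genes known as E2F targets, 25 fell and 0 rose with p53 on, with a median of -0.89, against 6.28% of all genes called lower and a median of 0.02. CLSPN, a checkpoint adaptor, fell by 1.72 (adjusted p = 0.00111), GINS2, a helicase subunit, fell by 1.86 (adjusted p = 0.00138) and the exonuclease gene EXO1 fell by 1.68 (adjusted p = 0.00146). Without the block CLSPN and GINS2 still passed (adjusted p = 0.0200 for each) and EXO1 did not (adjusted p = 0.0665). In recovery 22 of 40 rose and 0 fell, with a median of 0.81, against 3.84% of all genes called higher and a median of 0.02. DTL, which marks CDT1 for destruction, rose by 2.25 (adjusted p = 0.000630), the mismatch repair gene MSH6 by 1.85 (0.00113) and the licensing factor gene CDC6 by 1.79 (0.00197). Without the block 11 fell with p53 on and 6 rose in recovery. Without p53 off array 2 the count of falls was 16, and without p53 on then off array 1 the count of rises was 13. Relative to p53 off 0 were called in recovery (at most 1 higher and 2 lower under any alternative), with a median of 0.01.

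Of 25 G2/M genes known as MuvB targets, 11 fell and 0 rose with p53 on, with a median of -0.62, against 6.28% of all genes called lower. FOXM1, a transcription factor of mitotic genes, fell by 1.30 (adjusted p = 0.00458), the spindle checkpoint kinase gene TTK fell by 1.21 (0.00711) and the mitotic kinase gene AURKA fell by 0.95 (0.00979). Without the block FOXM1 passed (adjusted p = 0.0436), and TTK and AURKA did not (adjusted p = 0.0617 and 0.0687). Without the block 1 fell, and the count was 5 without either p53 on array, 4 without p53 off array 1 and 3 without p53 off array 2. It was 5 with no filter, and 17 to 19 with the lowest 50% of genes left out, a trend in the spread or the mean of probe sets. In recovery relative to p53 on, 0 rose and 1 fell, CCNB2 (cyclin B2), by 0.69 (adjusted p = 0.0473, or adjusted p = 0.417 without the block), with a median of -0.13, against 3.39% of all genes called lower. The count was 2 without either p53 off array and 0 without any of the other 4. Relative to p53 off the median was -0.80 in recovery, and FOXM1 (-1.42, adjusted p = 0.0267), TOP2A, a topoisomerase (-1.09, 0.0413), and CENPF, a kinetochore protein (-1.18, 0.0443), were lower, against 0.392% of all genes and a median of 0.03. Without the block 0 of these were called, and without 1 array the count ran from 0 without either p53 off array, through 1 and 2 without recovery arrays 1 and 2, to 11 without either p53 on array. It was 0 with no filter on dim genes, 1 after quantile normalization, 7 with probe sets above the dim level, 11 with only these groups fitted, 14 with the lowest 50% of genes left out or a trend in the spread, and 16 with the mean of probe sets.

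**Figure D4:**
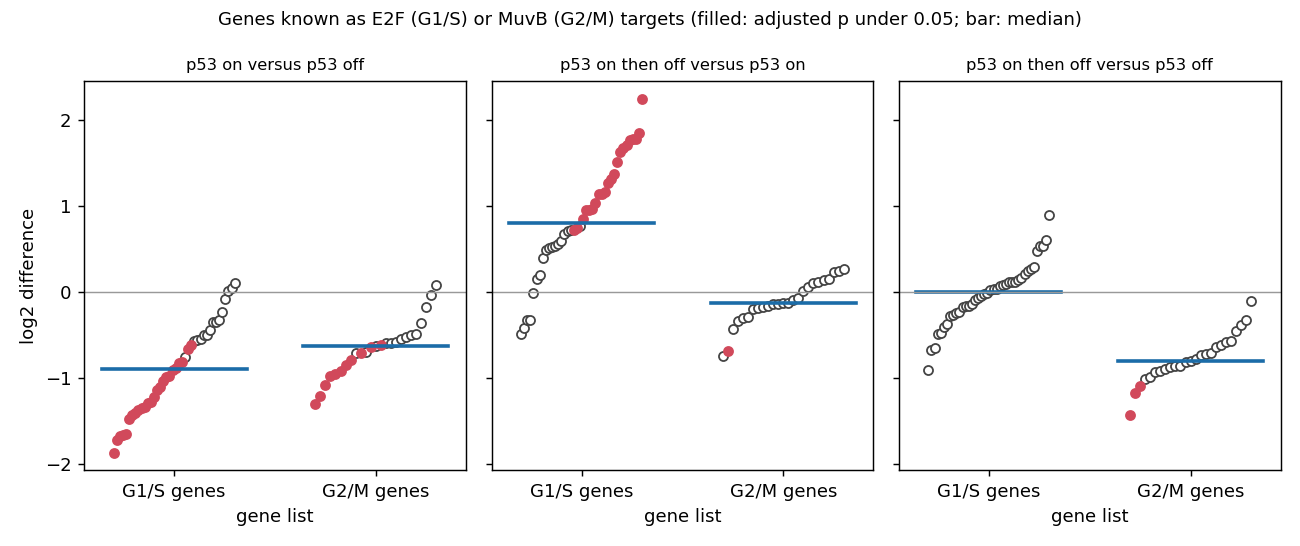
Log2 difference (vertical axis) of each testable G1/S gene (40) and G2/M gene (25) in the 3 comparisons, filled where adjusted p was under 0.05, with the median of each list as a bar. The G1/S median is -0.89 with p53 on, 0.81 in recovery and 0.01 against p53 off, and the G2/M median is -0.62, -0.13 and -0.80.

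For the 4 members called with p53 on, the genes closest in pattern were found over the 6 arrays, after each gene's mean within an experiment was subtracted. Closeness is the root mean square difference in log2 units. The smallest of many distances lies far below their median in any case. Whether these matches are closer than those of other genes was not tested. E2F7 was closest to ZNF767 (0.078) and ALPK3 (0.079), where the median over all tested genes was 0.516. E2F8 was closest to PGBD2 (0.025) and ALMS1 (0.054), against a median of 0.596. RB1 was closest to RACGAP1 (0.022) and AP2A2 (0.025), against 0.366, and RBL1 to PUS10 (0.046) and OMA1 (0.052), against 0.685.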

How the data were processed

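The authors deposited 1 log2 signal per exon-level probe set and array; the log2 scale was judged from the values, which run from -0.85 to 13.14. Per the labels, 100 ng of total RNA was labelled for the arrays. No source used here names the program, background step or normalization. Column medians were 5.24 to 5.31, and no scaling was added. The number of arrays limits the precision.

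The platform annotation gave 1 symbol to 224320 of 257430 probe sets, and these were used, while 10159 with several symbols and 22951 with none were not. Gene values are medians over probe sets, and genes in the lowest 25% by mean signal were not tested. ORC1, CDC45 and CDK1 were found under older symbols. Some listed genes were not analysed here.

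Groups follow the sample titles. One model over all 6 arrays was fitted with limma 3.58.1 in R 4.3.3, with group and experiment number as terms and two-sided moderated tests. Adjusted p-values are Benjamini-Hochberg values over the 14025 genes, called under 0.05. The block was set because members were to be compared within each experiment number. Same-numbered arrays deviated together from their group means (correlations across genes of 0.496, 0.551 and 0.630), and the numbers come from the descriptions in the labels. Separate cultures are not stated, so p-values measure only the spread between these samples, which may be technical. For a single gene, exact permutation of 2 against 2 arrays cannot pass the threshold.

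Members and lists were chosen with earlier results of these data known. Named genes are the members, up to 3 called genes per list and comparison with the smallest p, CDKN1A and MDM2, and the 2 nearest patterns of each member called with p53 on. E2F6, CDKN1B, CDKN2A, MYBL2 and the cell markers were named after their values were seen. Alternatives were no block, only the groups compared, the mean of probe sets, only probe sets above the dim level, quantile normalization, no filter, a stricter filter, a trend in the spread, and leaving out each array.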

Additional observations from a re-analysis of the deposited data

How the results depend on the processing

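Counts below are genes called higher and then lower. With p53 on relative to p53 off, all genes gave 726 and 881, against 126 and 82 with no replicate block, 1183 and 1484 with the mean of probe sets, and 427 and 466 with no filter on dim genes. In recovery relative to p53 on they gave 539 and 476, against 20 and 40 with no block, 1121 and 846 with the mean, 205 and 206 with no filter, and 834 and 719 with a trend in the spread. In recovery relative to p53 off they gave 29 and 55, against 4 and 0 with no block, 94 and 152 with only these groups fitted, 117 and 202 with the mean, 55 and 98 with probe sets above the dim level, 15 and 17 after quantile normalization, 10 and 1 with no filter, 84 and 169 with the lowest 50% of genes left out, and 79 and 162 with the trend. Leaving out 1 array gave 347 to 733 and 265 to 896 with p53 on, 194 to 675 and 207 to 584 in recovery relative to p53 on, and 13 to 94 and 4 to 152 relative to p53 off.

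Of the 10 members, 1 and 3 were called with p53 on and 2 and 1 in recovery relative to p53 on. With no replicate block these counts were 0 and 0 in both. With no filter on dim genes 0 were higher with p53 on, and 1 higher and 0 lower in recovery, where quantile normalization also gave 1 higher. Leaving out 1 array gave 0 to 1 higher and 1 to 3 lower with p53 on, and 1 to 3 higher and 0 to 1 lower in recovery. Relative to p53 off the count was 0 and 0 in each of these fits. E2F7, E2F8, RB1 and RBL1 kept the sign of each called difference in every alternative. The causes of these shifts were not tested.

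Members whose sign turned were not called in the fit with all arrays. With the mean of probe sets E2F4 was 0.064 with p53 on and RBL2 0.011 in recovery relative to p53 off, and with probe sets above the dim level E2F7 was 0.061 there. Leaving out 1 array with p53 on gave -0.18 to 0.057 for E2F4 and -0.27 to 0.42 for RBL2. In recovery relative to p53 on it gave -0.13 to 0.33 for E2F4, -0.25 to 1.12 for E2F5 and -0.52 to 0.17 for RBL2. Relative to p53 off it gave -0.19 to 0.27 for E2F4, -0.71 to 0.15 for E2F5, -0.31 to 0.18 for E2F7 and -0.30 to 0.12 for RBL2. Where an array was left out, the lone array of its group was assumed to vary like the others. With 2 arrays a group, a member's missing call does not show that its level was equal.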
